A study of Mus musculus with 18 samples.

Results

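The miR-181 family in mouse comprises mature miRNAs cut from hairpins that are grouped by their shared 5p seed. The entries of the miRNA table whose name is one of 7 family members were taken, which is 7 of the 1900 distinct mature names in the table: mmu-miR-181a-5p, mmu-miR-181b-5p, mmu-miR-181c-5p and mmu-miR-181d-5p, and from the opposite arm mmu-miR-181a-1-3p, mmu-miR-181a-2-3p and mmu-miR-181c-3p. These names occupied 9 rows, because miR-181a-5p and miR-181b-5p are each listed at 2 genomic copies, and the copy of higher mean was kept.

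Small RNAs were sequenced from NIH 3T3 TetON cells, a line derived from mouse embryo fibroblasts that carries a doxycycline-switched transgene, in 6 groups of 3 libraries. The SUN1L line expressed SS-HA-SUN1L-KDEL, the lumenal part of SUN1, which disrupts the LINC complex (the SUN and nesprin bridge between cytoskeleton and nuclear lamina), and the KDEL line expressed SS-GFP-KDEL as control. Each line was plated on a soft gel of 1 kPa and on a stiff gel of 308 kPa, and further KDEL cells on the stiff gel were given either blebbistatin at 10 µM or Y27632 (Y27) at 25 µM, both used to lower myosin II activity. Cells of all 6 groups, the KDEL controls included, received 1 µg/ml doxycycline for 48 h. Each construct was carried by its own stable line, and the methods describe fluorescence sorting for the KDEL line alone. An effect of LINC disruption therefore cannot be told apart from another difference between the lines. The study's methods call the libraries of a group biological replicates without saying what was kept separate, and the p-values rest on how far such libraries differ.

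A miRNA guides Argonaute to messages that pair with its seed, the bases from position 2 to 8, and such messages are repressed. Most hairpins yield one arm in excess. The family is known for setting signalling thresholds in T cells, and in endothelium miR-181b restrains NF-kB signalling by targeting importin-α3.

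The mature sequences are shown because the 4 members of the 5p arm differ only outside the seed, so that the reads of close members differ by few bases. They are from RefSeq (build GRCm38.p6), run 5′ to 3′ and have the seed in capitals. All 7 names were matched.
miR-181a-5p: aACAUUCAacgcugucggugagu
miR-181b-5p: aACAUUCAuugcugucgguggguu
miR-181d-5p: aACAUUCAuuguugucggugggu
miR-181c-5p: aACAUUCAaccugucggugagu
miR-181c-3p: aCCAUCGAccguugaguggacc
miR-181a-1-3p: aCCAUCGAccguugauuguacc
miR-181a-2-3p: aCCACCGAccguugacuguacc

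The seed ACAUUCA was found in 4 of 1679 mature mouse names in RefSeq, and these were the 4 members of the 5p arm. CCAUCGA was shared by miR-181a-1-3p and miR-181c-3p and by no other name, and CCACCGA occurred in miR-181a-2-3p alone. With positions counted from 1 at the 5′ end, miR-181b-5p and miR-181d-5p differed by 1 base over 23 compared (C12U). miR-181a-5p and miR-181b-5p differed by 3 (A9U, C10U and A21G). Deletion of position 11 of miR-181a-5p, which has 23 bases, gives the 22 bases of miR-181c-5p. A read with 1 wrong base can thus pass between miR-181b-5p and miR-181d-5p, and a read with 1 base lost or gained between miR-181a-5p and miR-181c-5p. How often this happened was not tested. Reads that only end early still cover a base that differs, because those under 15 bases were dropped.

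The members come from 3 loci with a pair of hairpins in each (positions in GRCm38). Mir181a-1 (chr1:137966455-137966541) and Mir181b-1 lie on chromosome 1, 97 bases apart, in no other RefSeq gene. Mir181a-2 (chr2:38852735-38852810) and Mir181b-2 lie on chromosome 2, 1019 bases apart, within the span of Nr6a1, which codes for a nuclear receptor, and of the lncRNA Nr6a1os. Mir181d (chr8:84178716-84178787) and Mir181c (chr8:84178873-84178961) lie on chromosome 8, 85 bases apart, and 29556 bases from Mir23a, which forms a cluster with Mir27a and Mir24-2. As miR-181a-5p is the same RNA from 2 hairpins, and miR-181b-5p likewise, the table cannot divide them between chromosomes 1 and 2, and the second copy had 99.7% to 100% of the kept value for miR-181a-5p and 97.2% to 101% for miR-181b-5p.

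The deposited values were read counts times a constant for each library, floored at 1, and the libraries held 1361360 to 8485822 counted reads. Blebbistatin replicate 3 stood apart: it had the fewest reads, and its median value over the 481 miRNAs that entered the tests (those reaching 10 in 3 or more libraries) was 15.5, against 160 and 162 in the other blebbistatin libraries. SUN1L replicate 2 on 1 kPa was also low, with 2765837 reads and a median of 39.1 against 78.8 and 87.2 in its group. The median ran from 91.5 to 103 in KDEL cells on 1 kPa and from 142 to 173 in the untreated groups on 308 kPa. With Y27 it ran from 189 to 212, so the typical value differed between the groups. Whether the scaling or the miRNAs themselves differed was not tested. Comparisons are therefore given with and without blebbistatin replicate 3 and, where it matters, SUN1L replicate 2 on 1 kPa and under other scalings. The fibroblast label was checked on 7 markers, all detected, with a summed value of 518000 to 3030000, against 2.58 to 53.9 for 4 blood cell markers found in the table, 45.2 to 660 for 6 of epithelium, 59.3 to 1230 for 2 of endothelium, 333 to 1380 for 3 of muscle and 2190 to 24200 for 2 of neurons. No marker found was at 1 in all 18 libraries, and the part of other cells in the results was not tested.

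The family was carried by 3 members. miR-181a-5p had the highest mean over 18 libraries, 5334, rank 78 among the 1900 names, followed by miR-181d-5p with 4704 (rank 84) and miR-181b-5p with 2891 (rank 100). miR-181c-3p (505), miR-181a-1-3p (397) and miR-181c-5p (366) were far lower, the last at rank 198. These are values per read, with no length correction for RNAs of 22 to 24 bases, and ligation of adapters favours some sequences, so levels of different miRNAs are compared only roughly. miR-181a-2-3p was listed at 1, the floor, in all 18 libraries. Its entry starts 3 bases downstream of the RefSeq mature end (38852788 against 38852785), while every other member starts at the same base as in RefSeq. The study's methods describe a count limited to reads that began at the annotated first base of a mature miRNA, and also a count per gene. They do not say which of these the deposited values hold. Among 983 entries that could be placed against RefSeq, 5 started 1 base or more apart, and 4 of these 5 were at 1 in all 18 libraries. miR-181a-2-3p is itself among those 4. Of the 978 with the same start, 31.8% were at 1 throughout. Whether the shifted start accounts for its values was not tested, and 6 members entered the tests.

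miR-181a-5p stood at 4117, 2794 and 4342 in KDEL cells on 1 kPa and at 6546, 4259 and 4585 on 308 kPa. In SUN1L cells it stood at 3327, 1434 and 4283 on 1 kPa and at 11617, 6232 and 7907 on 308 kPa. The 2 gels overlapped in KDEL cells but not in SUN1L cells, where the lowest stiff library was above the highest soft one. With blebbistatin it was 5275, 4963 and 458, and with Y27 7891, 6808 and 9177. Without blebbistatin replicate 3 the order of the means was SUN1L on 308 kPa (8585 ± 2756, SD, n = 3), Y27 (7959 ± 1186), KDEL on 308 kPa (5130 ± 1237), blebbistatin (5119, n = 2), KDEL on 1 kPa (3751 ± 836) and SUN1L on 1 kPa (3015 ± 1450). SUN1L on 308 kPa and Y27 overlapped, as did KDEL on 308 kPa with blebbistatin and the 2 lines on 1 kPa.

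miR-181b-5p was 1783, 1556 and 2109 in KDEL cells on 1 kPa, and 3361, 3117 and 3150 on 308 kPa. In SUN1L cells it was 1199, 507 and 1234 on 1 kPa, and 4198, 3150 and 4198 on 308 kPa. In both lines every stiff library exceeded every soft one, and on 1 kPa every SUN1L library was below every KDEL library. Blebbistatin gave 4192, 3459 and 264, and Y27 gave 4954, 4337 and 5262. The order for this member was Y27 (4851 ± 471, SD, n = 3), SUN1L on 308 kPa (3849 ± 605), blebbistatin without replicate 3 (3826, n = 2), KDEL on 308 kPa (3209 ± 132), KDEL on 1 kPa (1816 ± 278) and SUN1L on 1 kPa (980 ± 410), and of the neighbours only SUN1L on 308 kPa and blebbistatin overlapped.

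miR-181d-5p, from chromosome 8, went in step with miR-181b-5p. It was 3323, 3060 and 3436 in KDEL cells on 1 kPa, and 5122, 6061 and 4986 on 308 kPa. In SUN1L cells it was 2170, 794 and 1916 on 1 kPa, and 7085, 4722 and 5451 on 308 kPa. The 2 gels were again apart in both lines. Blebbistatin gave 7158, 5744 and 347, and Y27 gave 8178, 7009 and 8116. Every Y27 library lay above every untreated KDEL library on 308 kPa.

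The 3 minor members were likewise lowest in SUN1L cells on 1 kPa once blebbistatin replicate 3 is set aside. miR-181c-5p ran from 249 to 388 in KDEL cells on 1 kPa, from 337 to 601 on 308 kPa and from 459 to 614 with Y27. In SUN1L cells on 1 kPa it was 192, 42.7 and 208, below every untreated KDEL library, and on 308 kPa 659, 361 and 461. Its lowest values rest on few reads, 36 in SUN1L replicate 2 on 1 kPa and 9 in blebbistatin replicate 3 (a value of 11.6). miR-181c-3p, from the same hairpin, was 304, 134 and 339 in SUN1L cells on 1 kPa and 536 to 632 on 308 kPa, and in KDEL cells 434 to 477 and 490 to 716. miR-181a-1-3p varied least between the stiff groups, with group means of 444 to 493 in SUN1L, KDEL and Y27, and was 234, 170 and 382 in SUN1L cells on 1 kPa. The plot of values by library shows all 6 members.

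**Figure D1:**
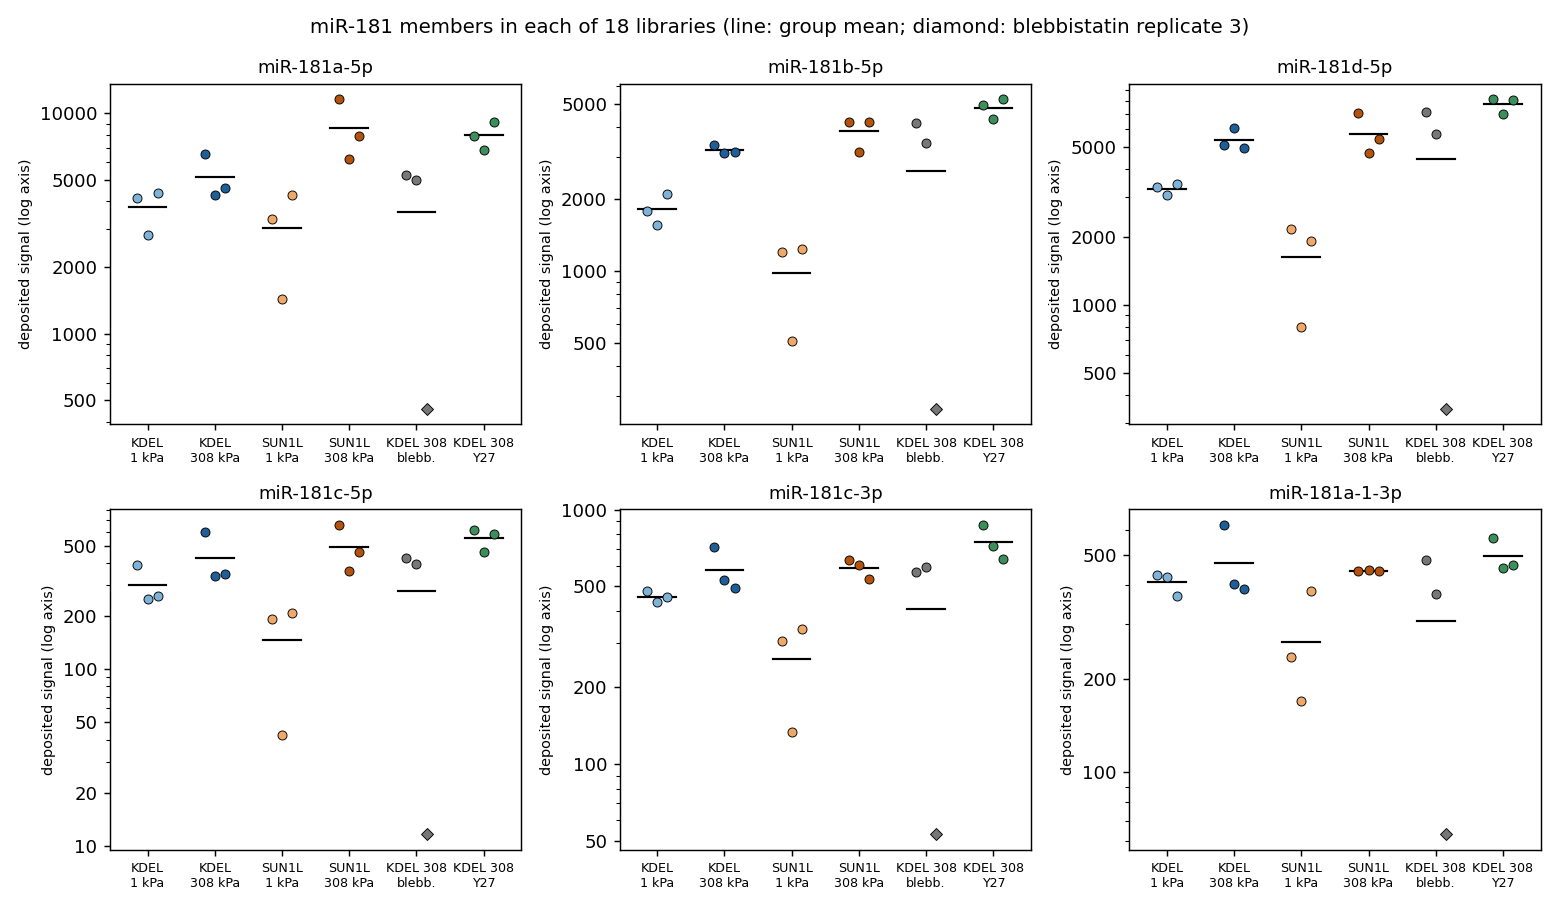
Deposited signal (log axis) of 6 miR-181 members in each of 18 libraries, in 6 groups of 3 on the x axis, where points are libraries, lines are group means and the diamond is blebbistatin replicate 3. For all 6 members the 3 SUN1L libraries on 308 kPa lie above the 3 on 1 kPa, and the diamond is the lowest point in every panel, at 458 for miR-181a-5p.

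The first comparison asked whether the members respond to rigidity when the LINC complex is disrupted. In SUN1L cells all 6 members had higher values on 308 kPa than on 1 kPa with no overlap of the groups, which 65.7% of the 481 miRNAs also showed. Log2 fold changes on the log2(value + 1) scale were 2.07 for miR-181b-5p, 1.99 for miR-181c-5p, 1.93 for miR-181d-5p, 1.60 for miR-181a-5p, 1.29 for miR-181c-3p and 0.84 for miR-181a-1-3p, with a median of 1.77 against 1.34 over all 481. In the limma fit of 18 libraries no member passed an adjusted p of 0.05 (Benjamini-Hochberg over 481, lowest 0.0865 for miR-181b-5p, SE 0.76), 3 had an unadjusted p under 0.05, and 4.16% of all miRNAs were called. Without blebbistatin replicate 3, a library that is in neither group but widens the shared spread, all 6 rose. The adjusted p in that limma fit was 1.7e-05 for miR-181b-5p (SE 0.30), 4.55e-05 for miR-181d-5p (SE 0.31), 0.000708 for miR-181a-5p (SE 0.35), 0.000982 for miR-181c-5p (SE 0.46), 0.00134 for miR-181c-3p (SE 0.31) and 0.0175 for miR-181a-1-3p (SE 0.30). In the same fit 69.9% of all miRNAs were called, 66.9% as higher, so the direction of the members was also that of most miRNAs.

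Relative to the bulk of miRNAs the 5p members lay above the 3p members miR-181c-3p and miR-181a-1-3p, a difference that was not tested. It did not extend to the other 3p arms of these hairpins, given below, such as miR-181b-1-3p (1.98 with 17 libraries on the deposited scale). With 17 libraries and median-of-ratios scaling, which brings the median fold change of all miRNAs from 1.34 to 0.09, only miR-181b-5p (0.76, SE 0.18, adjusted p 0.00159 by limma) and miR-181d-5p (0.62, SE 0.19, adjusted p 0.0115) rose, where 28.5% of miRNAs were called higher. miR-181c-5p was at 0.69 and miR-181a-5p at 0.29, and neither passed, while the 3p members were at -0.01 (miR-181c-3p) and -0.46 (miR-181a-1-3p), not called and with the sign turned. With quantile scaling the same pair rose (0.81 and 0.55, background 27.7%) and miR-181a-1-3p fell by 0.77 (adjusted p 0.00903 by limma, background 25.4% lower). With libraries brought to a common total (RPM) 5 of 6 rose, all but miR-181a-1-3p (background 52.2%). Without SUN1L replicate 2 on 1 kPa as well (16 libraries, deposited scale) 5 of 6 rose, again all but miR-181a-1-3p, with miR-181b-5p at 1.65 and miR-181c-5p at 1.26 (background 57%). The labels number the libraries but name no runs, so the numbers were cut here into 3 runs that each hold both gels of both lines. The sign was the same in 3 of 3 runs for every member. Differences ran from 1.77 to 2.63 for miR-181b-5p and from 0.22 to 1.40 for miR-181a-1-3p. How many of all miRNAs kept their sign was not counted, and 65.7% had groups that did not overlap in this direction.

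**Figure D2:**
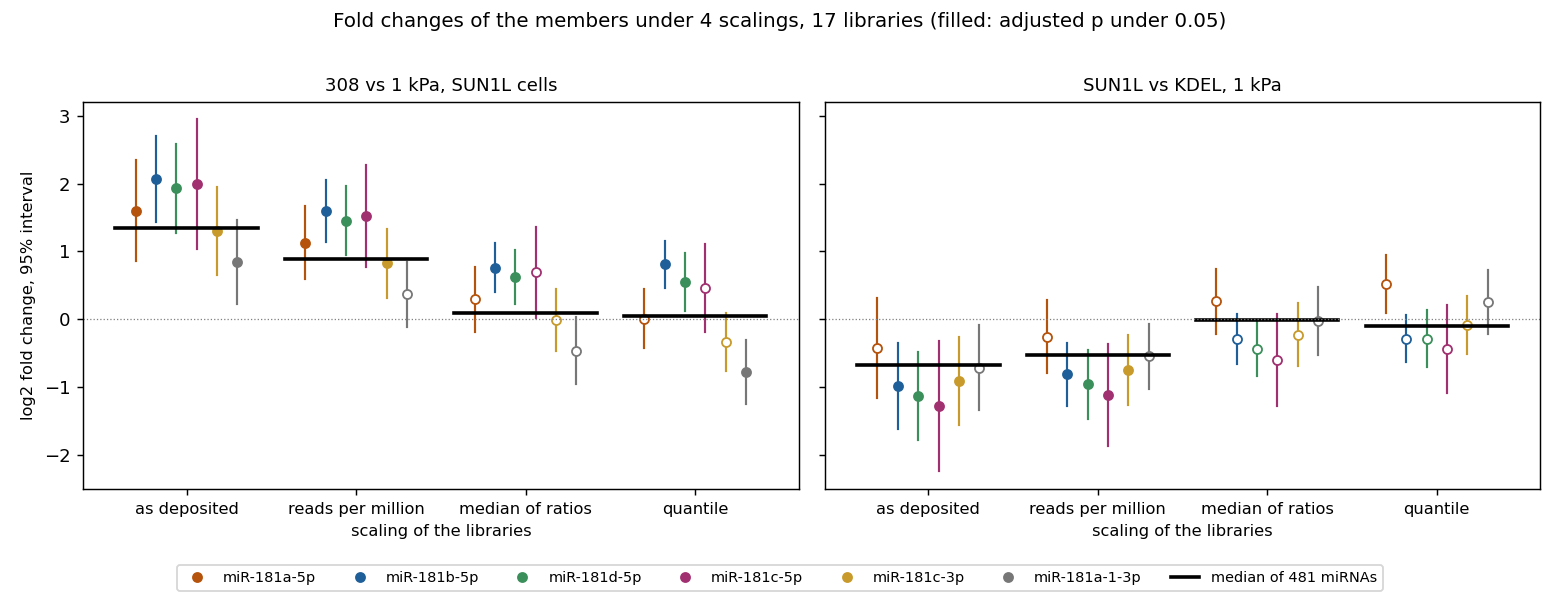
Log2 fold changes with 95% intervals of 6 members under 4 scalings of 17 libraries (x axis), for rigidity in SUN1L cells (left) and for SUN1L against KDEL on 1 kPa (right), where filled points have an adjusted p under 0.05 and the black bar is the median of 481 miRNAs. On the left miR-181b-5p and miR-181d-5p are filled under all 4 scalings, with miR-181b-5p between 0.76 and 2.07, and on the right no point is filled under median-of-ratios or quantile scaling.

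On 1 kPa SUN1L was compared with KDEL, a difference that joins LINC disruption with any other difference between the lines. All 6 members had a lower mean in SUN1L cells, and for miR-181b-5p, miR-181d-5p, miR-181c-5p and miR-181c-3p the groups did not overlap, as was so in this direction for 41.4% of all miRNAs. No member was called with 18 libraries (adjusted p 0.434 to 0.702 by limma, none with an unadjusted p under 0.05, 2.7% of miRNAs called). miR-181d-5p had the lowest p, at -1.13 (SE 0.81). Without blebbistatin replicate 3 the same 4 members fell: miR-181d-5p at -1.13 (SE 0.31, adjusted p 0.00729 by limma), miR-181b-5p at -0.99 (SE 0.30, 0.0135), miR-181c-3p at -0.92 (SE 0.31, 0.0232) and miR-181c-5p at -1.29 (SE 0.46, 0.03). Of all miRNAs 43.9% were called in that fit, 37.2% as lower, with a median of -0.68. miR-181a-5p was closest to 0 at -0.43. On the RPM scale 4 of 6 fell (background 36.8% lower). After median-of-ratios or quantile scaling none was called, and miR-181a-5p turned to 0.26 and 0.52, not called.

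SUN1L replicate 2 weighed on these values. Leaving it out with blebbistatin replicate 3 brought miR-181d-5p to -0.68 (adjusted p 0.0148 by limma), miR-181b-5p to -0.57 (0.0349), miR-181c-5p to -0.55 (0.175) and miR-181c-3p to -0.50 (0.082), so 2 of the 4 kept their call, where 26.6% of miRNAs were called lower. The difference within the numbered runs was -0.57, -1.61 and -0.77 for miR-181b-5p and -0.31, -0.96 and -0.02 for miR-181a-5p.

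On 308 kPa the lines were closer. No member was called with 18 libraries (adjusted p 1 for each by limma, none with an unadjusted p under 0.05) or with 17 (lowest 0.479), where 3.12% and 3.74% of miRNAs were, and for no member were the groups apart, while 13.7% of all miRNAs had every SUN1L library higher. The median over members was 0.15 against 0.08 for all. miR-181a-5p had the lowest p and the largest difference, 0.72 (SE 0.73 with 18 libraries, 0.35 with 17, 95% interval -0.02 to 1.46 with 17), and was higher in 3 of 3 numbered runs (0.83, 0.55 and 0.79). The other 5 lay between -0.05 and 0.25.

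**Figure D3:**
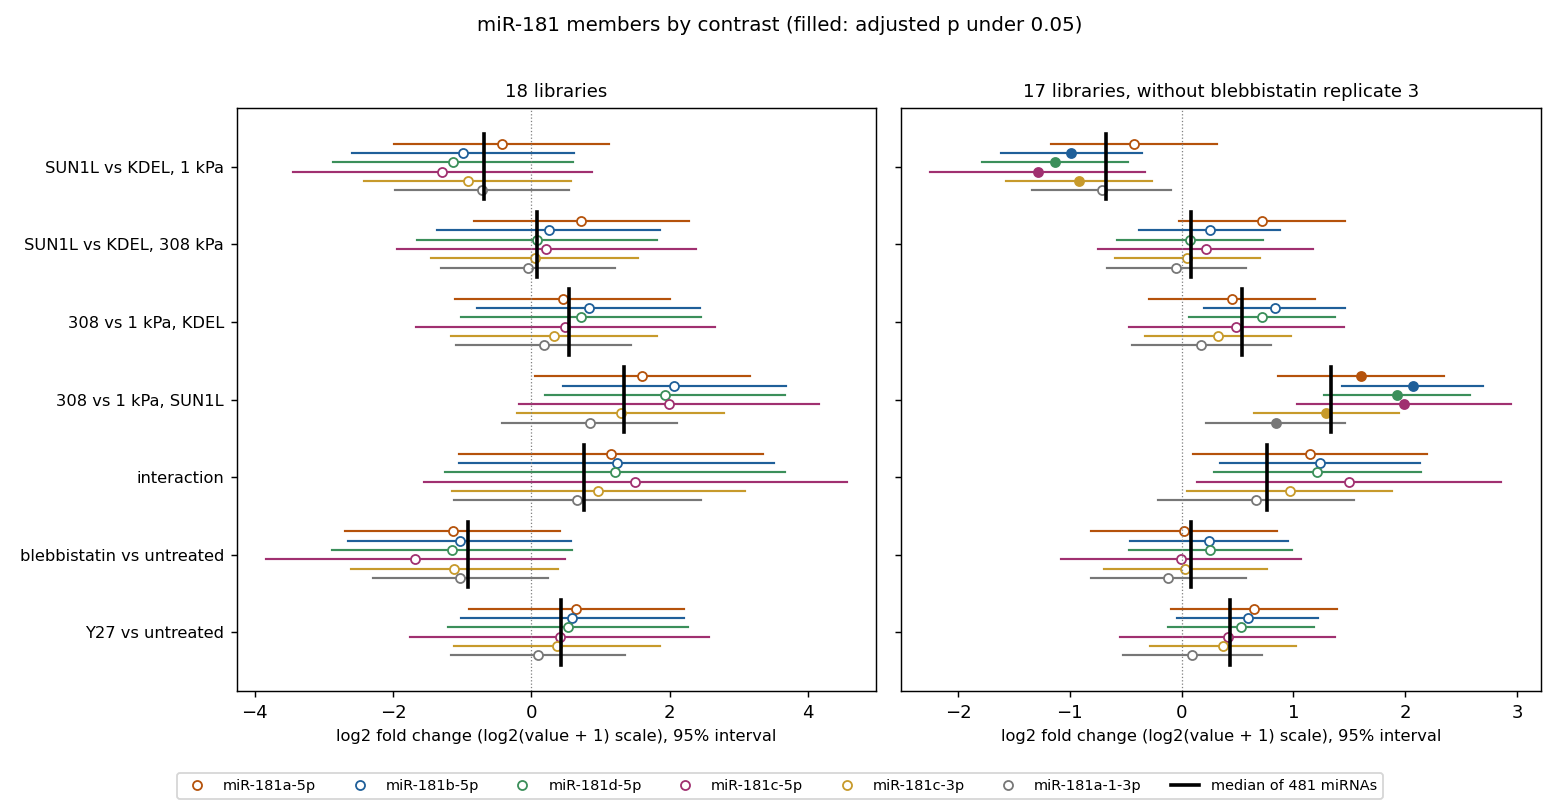
Log2 fold changes (x axis, with 95% intervals) of 6 members in 7 contrasts (rows), fitted on 18 libraries (left) and on 17 without blebbistatin replicate 3 (right), where filled points have an adjusted p under 0.05 and the black bar is the median of 481 miRNAs. No point is filled on the left; on the right 6 are filled for rigidity in SUN1L cells and 4 for SUN1L against KDEL on 1 kPa, and all of these lie on the side to which the median has moved.

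Because both members of a ratio are read in the same library, their ratio does not depend on the constant of that library. miR-181a-5p over miR-181d-5p was 1.24, 0.913 and 1.26 in KDEL cells on 1 kPa and 1.28, 0.703 and 0.920 on 308 kPa, against 1.53, 1.81 and 2.23 in SUN1L cells on 1 kPa and 1.64, 1.32 and 1.45 on 308 kPa. With Y27 it was 0.965, 0.971 and 1.13, and with blebbistatin 0.737, 0.864 and 1.32. None of the 12 KDEL libraries reached the lowest of the 6 SUN1L libraries, but blebbistatin replicate 3 came level with it to 3 digits, and the next KDEL library was at 1.28. The ratio of miR-181a-5p to miR-181b-5p set the lines apart on 1 kPa only, with 2.77 to 3.47 in SUN1L and 1.80 to 2.31 in KDEL cells, and overlapped on 308 kPa (1.88 to 2.77 and 1.37 to 1.95). miR-181b-5p over miR-181d-5p stayed between 0.509 and 0.770 in all 18 libraries. These ratios were singled out after their values were seen and carry no test.

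**Figure D4:**
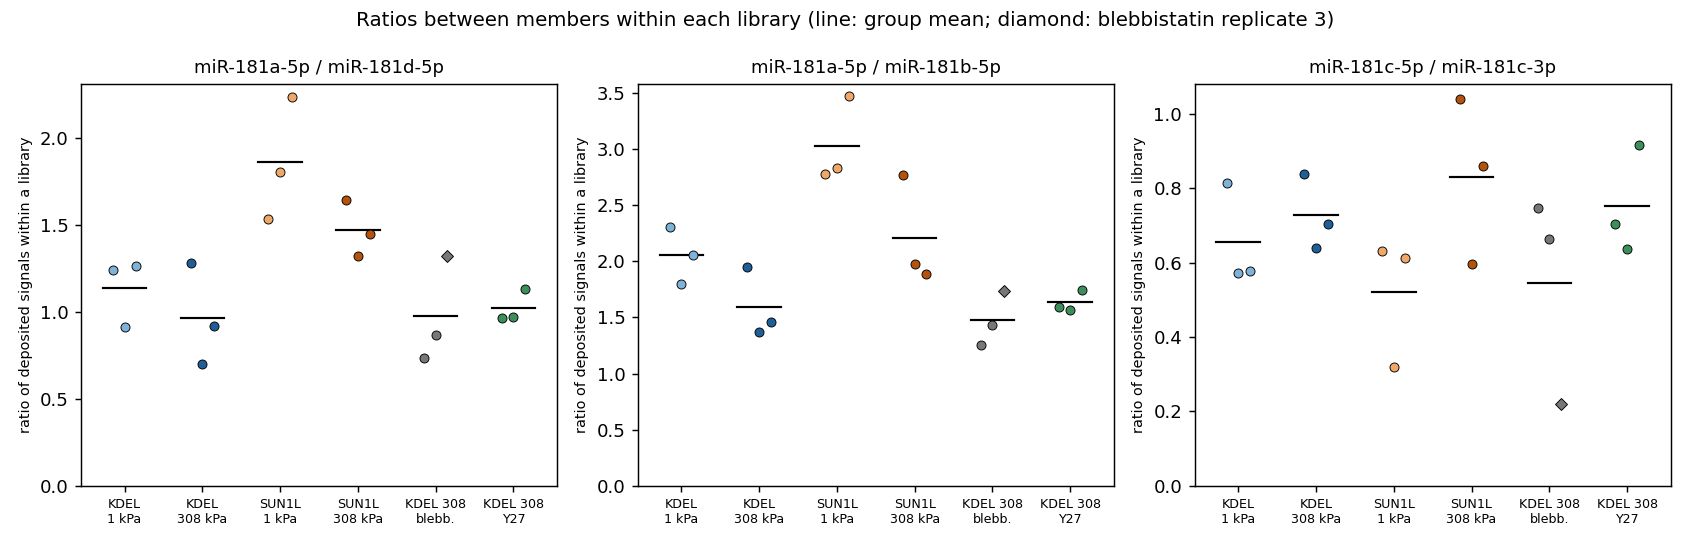
Ratio of the deposited signals of pairs of members within each library (y axis, from 0) by group (x axis), where points are libraries, lines are group means and the diamond is blebbistatin replicate 3. In the left panel the 6 SUN1L libraries, 1.32 to 2.23, sit above the KDEL libraries, of which the diamond at 1.32 is the highest. In the right panel, the arms of the miR-181c hairpin, the lowest points are blebbistatin replicate 3 at 0.219 and a SUN1L library on 1 kPa at 0.319.

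The 2 arms of one hairpin can be read against each other for miR-181c. miR-181c-5p over miR-181c-3p was 0.574 to 0.814 in KDEL cells on 1 kPa, 0.641 to 0.839 on 308 kPa, 0.596 to 1.04 in stiff SUN1L cultures and 0.638 to 0.917 with Y27. In SUN1L cells on 1 kPa it was 0.631, 0.319 and 0.613. Its lowest values thus fell in SUN1L replicate 2 on 1 kPa and in blebbistatin replicate 3 (0.219), the libraries of fewest reads. The 3p arm of this hairpin exceeded the 5p arm in every library but SUN1L replicate 1 on 308 kPa (1.04). For miR-181a the 5p arm exceeded miR-181a-1-3p by 6.62 to 26.3 times, the numerator being the sum of 2 hairpins. This ratio was 14.0 to 19.8 with Y27 and 10.5 to 11.8 in untreated KDEL cells on 308 kPa, and 13.9 to 26.3 in SUN1L cells on 308 kPa.

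For rigidity in control cells, all 6 members had a higher mean on 308 kPa than on 1 kPa, and miR-181b-5p, miR-181d-5p and miR-181c-3p had groups that did not overlap (40.7% of all miRNAs in this direction). No member was called with 18 libraries (adjusted p 0.769 to 0.862 by limma, none with an unadjusted p under 0.05), nor was any miRNA (0%, 13 with an unadjusted p under 0.05). Nor was any member with 17 libraries, where 2 had an unadjusted p under 0.05 and 7.07% of miRNAs were called. miR-181b-5p had the lowest p, at 0.83 (SE 0.76 with 18 libraries, SE 0.30 and adjusted p 0.0688 with 17). The median over members was 0.47 against 0.54 over all miRNAs. With 16 libraries miR-181b-5p (adjusted p 0.00184 by limma) and miR-181d-5p (0.72, 0.00554) rose, as did 36% of all. Under median-of-ratios scaling miR-181b-5p was at 0.28 and none was called.

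The difference between the rigidity responses of the 2 lines was tested as an interaction. Estimates were positive for all 6 members, from 0.66 for miR-181a-1-3p to 1.50 for miR-181c-5p, with a median of 1.18 against 0.76 over all miRNAs. None was called (adjusted p 0.783 for each member with 18 libraries by limma, none with an unadjusted p under 0.05, and 0.208% of miRNAs called). With 17 libraries 5 had an unadjusted p under 0.05, the adjusted p of miR-181b-5p (1.24, SE 0.42, 95% interval 0.35 to 2.13) was 0.0651 by limma, and the share of all called was again 0.208%. The call depended on the model. With the run of library numbers as covariate in the 15 libraries other than blebbistatin, 4 members were called higher, miR-181b-5p (SE 0.37, adjusted p 0.0317 by limma) and miR-181a-5p, miR-181c-5p and miR-181d-5p (adjusted p 0.0403 each), where 25.8% of all miRNAs were called higher. The same 15 libraries without the covariate gave no called member (lowest adjusted p 0.0847 by limma, 4 with an unadjusted p under 0.05) and 0% of all miRNAs (148 with an unadjusted p under 0.05).

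The inhibitors were compared with the same untreated KDEL libraries on 308 kPa, which the comparisons of lines and gels on 308 kPa also share. With blebbistatin all 6 members were lower by 1.03 to 1.68 with 18 libraries, none called and none with an unadjusted p under 0.05 (adjusted p 0.348 to 0.352 by limma, 0% of all called, 43 miRNAs with an unadjusted p under 0.05), miR-181a-1-3p having the lowest p at -1.03 (SE 0.59). That rested on replicate 3. Without it the estimates ran from -0.12 to 0.26, again with 0% called (23 miRNAs with an unadjusted p under 0.05), and miR-181a-5p was at 0.02 (95% interval -0.81 to 0.85).

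With Y27 all 6 members had a higher mean than in untreated cells, and miR-181a-5p, miR-181b-5p and miR-181d-5p had groups that did not overlap, as did 32.2% of all miRNAs in this direction. None was called with 18 libraries (adjusted p 0.943 to 0.959 by limma) or 17 (lowest 0.389), none had an unadjusted p under 0.05 in either, and 0% of all miRNAs were called (9 and 62 with an unadjusted p under 0.05). miR-181a-5p had the lowest p, at 0.65 (SE 0.73, and 0.35 with 17 libraries). The median was 0.47 against 0.43 over all. With 16 libraries miR-181b-5p passed (0.59, adjusted p 0.0482 by limma, 8.94% of all called higher). Under median-of-ratios scaling the members lay between -0.33 and 0.22. The 2 drugs were given at different doses and were not compared with each other.

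The summed share of the family in all signal was 0.192% to 0.223% for KDEL cells on 1 kPa and 0.261% to 0.278% on 308 kPa. For SUN1L cells it was 0.094% to 0.174% on 1 kPa and 0.285% to 0.410% on 308 kPa. It was 0.293% to 0.314% with Y27, and 0.362%, 0.324% and 0.0682% with blebbistatin. The soft and stiff groups did not overlap in either line. The share carries no test, and most of the signal in its denominator comes from a few abundant miRNAs.

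Other products of the same hairpins, which are not members, were scarce. miR-181d-3p, the arm opposite miR-181d-5p, was at the floor of 1 in all 3 SUN1L libraries on 1 kPa and at 21.6, 5.44 and 15.4 on 308 kPa, and ranged from 17.9 to 30.0 with Y27. miR-181b-1-3p was 7.11 to 15.5 in SUN1L cells on 1 kPa and 39.8 to 56.7 on 308 kPa, and miR-181b-2-3p did not exceed 2.51 in any library. Without blebbistatin replicate 3 both tested arms were called higher on the stiff gel in SUN1L cells, as were 66.9% of all miRNAs. miR-181d-3p was at 2.74 (adjusted p 2.97e-05 by limma) and miR-181b-1-3p at 1.98 (7.08e-05). With 18 libraries neither was called (0.0558 and 0.111). Under median-of-ratios scaling of 17 libraries miR-181b-1-3p was at 0.74 (adjusted p 0.0422 by limma) and miR-181d-3p at 1.85, where 28.5% of miRNAs were called higher. These 2 arms were thus not below the 5p members. miR-181d-3p entered the tests only through libraries on 308 kPa, as it reached the filter value in none on 1 kPa. Its call between gels therefore cannot be separated from that selection, and the size of its change depends on the floor.

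Of the neighbours of miR-181c and miR-181d on chromosome 8, 5 of 6 rose between gels in SUN1L cells with 17 libraries, where 66.9% of all miRNAs were called higher, and none did by limma with 18 (2 with an unadjusted p under 0.05). They spread more widely than the members, from 2.68 for miR-23a-3p and 2.65 for miR-23a-5p through 1.88 for miR-27a-3p and 1.33 for miR-24-3p to 0.13 for miR-27a-5p, which did not pass. Under median-of-ratios scaling miR-23a-3p rose by 1.37 (adjusted p 0.000866 by limma) and miR-27a-5p fell by 1.18 (0.000722), so the arms of a single cluster went apart. miR-24-3p is also made from a second cluster.

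As miR-181b restrains NF-kB signalling in endothelium, 12 miRNAs known from NF-kB and inflammation were set beside the family, of which 11 entered the tests. None was called in any contrast with 18 libraries by limma (3 had an unadjusted p under 0.05 between gels in SUN1L cells, 4 with blebbistatin and 0 elsewhere). With 17 libraries 7 of 11 rose and 1 fell between gels in SUN1L cells, among them miR-155-5p (1.85, adjusted p 0.000116 by limma), which promotes inflammatory signalling, and miR-146a-5p (1.88, 0.012), which restrains it, beside 66.9% of all miRNAs called higher and 2.91% lower. miR-146b-5p, with the seed of miR-146a, fell by 0.69 (0.0494). The list's median was 1.30, close to the 1.34 of all miRNAs. On 1 kPa 4 of 11 fell in SUN1L cells and none rose (37.2% of all called lower, median -0.63, all miRNAs -0.68), in KDEL cells 1 rose on the stiff gel (miR-125b-5p, 1.15, adjusted p 0.0423, 7.07% of all called), and in the other 4 contrasts none was called. Under median-of-ratios scaling the gel comparison in SUN1L cells had 4 up and 4 down, where 28.5% of all miRNAs were called higher and 22.2% lower. The other counts moved too. On 1 kPa miR-10a-5p (1.12, adjusted p 0.0039 by limma), miR-146b-5p (1.27, 0.000945) and miR-21a-5p (0.775, 0.0202) rose in SUN1L cells. miR-125b-5p (-0.66, 0.0151) and miR-31-5p (-1.18, 0.00142) still fell. Between gels in KDEL cells miR-125b-5p was not called (0.595, 0.1) and miR-146b-5p fell (-1.17, 0.0278).

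The miRNAs outside the family whose log2 values followed miR-181a-5p most closely over 18 libraries were miR-1839-3p (Pearson r 0.978), miR-34c-3p (0.978), miR-22-3p (0.975), miR-187-3p (0.970) and miR-24-3p (0.966), against a median of 0.823 over all tested miRNAs. Over 17 libraries they were the same 5, at 0.919 to 0.952, with a median of 0.719. The other members followed miR-181a-5p less closely than these 5, at 0.910 to 0.964 over 18 libraries and 0.768 to 0.912 over 17. Between all pairs within the family r ran from 0.768 (miR-181a-5p with miR-181a-1-3p) to 0.987 (miR-181b-5p with miR-181d-5p) over 17 libraries. Over 17 libraries the closest pair thus came from different chromosomes and differs by 1 base. The least close pair shares a hairpin in part, as miR-181a-5p also comes from another. Over 18 libraries that pair was at 0.910, and a different pair was the least close (0.890). The libraries share the difference in median described above, so these values are descriptions without a test.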

How the data were processed

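Per the labels and the study's methods, small RNA libraries were checked with FastQC. Reads were trimmed of adapter, dropped under 15 bases, aligned and counted against miRBase 20. The methods name a count per gene and one per mature miRNA, the latter only where the 5′ end of a read matched. The deposited values are a signal normalized by the authors: reads times a constant per library (1 read was worth 0.666 to 1.55), floored at 1. The labels name mm9, but positions matched GRCm38, the build given here. No per-sample column was left out.

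Each contrast was fitted with limma (version 3.58.1, R 4.3.3) with an intensity trend on log2(value + 1) of the 481 miRNAs that reached 10 in 3 or more libraries, on all 18 libraries in 6 groups, and adjusted by Benjamini-Hochberg. The pseudocount understates changes of low miRNAs. The fit was tried on simulated data in which all libraries had the same depth. These held no outlying library and no general shift of a group's values, so the trial does not cover those features of the real data. Members get their values in every library; fold changes, errors and p-values are given for members called in the fits of 18 or 17 libraries and for the lowest p of each contrast. The members and lists were chosen with earlier results of these data known. Scaling, pseudocount, filter, weights, trend, copy, run and each library were varied.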

Additional observations from a re-analysis of the deposited data

How the results depend on the processing

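With 18 libraries no member was called in any of 7 contrasts. Leaving out 1 library each gave 0 to 6 called members for rigidity in SUN1L cells and 0 to 4 for SUN1L against KDEL on 1 kPa, and 0 in the other 5 contrasts; blebbistatin replicate 3 alone set the upper values. For rigidity in SUN1L cells the count was 1 with quantile scaling, 5 with only the groups compared, 6 with array weights, 6 with 15 libraries (no blebbistatin) with or without library run as covariate and, in alternatives added after the data had been seen, 2, 3 and 5 with 17 libraries under median-of-ratios, quantile and RPM scaling and 5 with 16 libraries. For SUN1L against KDEL on 1 kPa it was 3 with array weights, 5 with library run as covariate, 4 with 15 libraries, 4 with 17 libraries in RPM and 2 with 16. For rigidity in KDEL cells it was 2 with only the groups compared, 2 with array weights, 1 with run as covariate and 2 with 16 libraries. Array weights called 1 member on 308 kPa, 1 for the interaction and 5 for Y27. Run as covariate called 4 for the interaction (25.8% of all miRNAs called higher), and 16 libraries 1 for Y27 (8.94%). The 6 members called for rigidity in SUN1L cells with 17 libraries stood beside 66.9% of all miRNAs called higher. Where no share of all miRNAs is given here or above, as for array weights and only the groups compared, a count cannot be read as particular to the family.

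Signs turned for rigidity in SUN1L cells in miR-181c-3p, at -0.34 with quantile scaling, and, with 17 libraries, at -0.01 (median-of-ratios) and -0.34 (quantile). In miR-181a-1-3p they turned to -0.41 (median-of-ratios) and -0.79 (quantile), and to -0.46 and -0.77 with 17 libraries. With blebbistatin miR-181a-1-3p turned to 0.11 (quantile), 0.23 (array weights) and 0.09 (17 libraries, RPM), and without a single library it ran from -1.57 to -0.12. The cause was not tested. The 2 planned tests on recovered reads were not run, because values at the floor of 1 are not whole multiples of a read. No paired analysis was possible because the labels number no replicates; the nearest to a block is the fit with the run of library numbers as covariate, whose counts stand above, and the labels do not say what a run shares. Depth limits miR-181c-5p most, and with 3 libraries a group changes near the median of all miRNAs cannot be told from a shift in scale.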
